A study of Mus musculus with 4 samples.

Results

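The interferon-γ induced GTPases described here are 10 genes of the 24062 in the deposited count table: the guanylate-binding protein genes Gbp2, Gbp3, Gbp4, Gbp6, Gbp7 and Gbp9, and the immunity-related GTPase (IRG) genes Irgm1, Irgm2, Igtp and Tgtp1. They were taken by symbol, as a list of these 2 families, and all 10 passed the filter on low counts. RNA came from gBT-I cells, CD8+ T cells with a transgenic receptor for a herpes simplex virus glycoprotein B peptide. Splenocytes of specific pathogen free (SPF) gBT-I transgenic donors were activated in culture with that peptide and LPS and given an interleukin that the labels name IL-1. They were injected into C57BL/6 recipients on day 4, and gBT-I cells were enriched from the spleen and sorted 7 days after transfer. Recipients were SPF in 2 libraries and germ free (GF) in 2 libraries. By the labels every library shares the donor strain, the peptide, the LPS and the cytokine, and the recipient's microbiota is the labelled difference. The ages of the mice and whether replicates came from separate mice are not stated in the labels, so a p-value here reflects only how far these libraries scatter, which may be technical.

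Both families are large GTPases that cells make after interferon-γ binds its receptor. Signalling runs through the kinases JAK1 and JAK2 to DNA elements called GAS, and IRF1 acts on interferon-stimulated response elements (ISRE). The proteins gather on vacuoles that hold bacteria or parasites and on membranes of the cell itself. Among the IRG proteins, those of Irgm1, Irgm2 and Igtp (Irgm3) hold the others inactive on host membranes, and Tgtp1 (Irgb6) is one of the effectors that load onto vacuoles. Activated CD8+ T cells both secrete interferon-γ and carry its receptor.

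The interferon motifs in front of the genes are shown first because all the members share an inducer. RefSeq promoters on GRCm38.p6, from 250 bases before to 50 bases after the start, were matched for 7 of the 10 members (Gbp4, Gbp6 and Gbp9 had no entry). The motifs searched on both strands were TTC, any 3 bases and GAA for GAS, and GAAA, any 2 bases and GAAA for the core of an ISRE. These do not contain one another, though an ISRE match can begin within another one. Each line gives the 100 bases from 110 to 11 bases before the start, read 5′ to 3′ on the gene's own strand, with matches in capitals.
Gbp2, chr3:142620553-142620652, plus strand: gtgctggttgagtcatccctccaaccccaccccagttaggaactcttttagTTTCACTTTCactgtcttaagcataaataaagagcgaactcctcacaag
Gbp3, chr3:142559934-142560033, plus strand: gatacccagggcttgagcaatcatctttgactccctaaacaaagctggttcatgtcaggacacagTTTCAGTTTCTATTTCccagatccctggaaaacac
Gbp7, chr3:142530226-142530325, plus strand: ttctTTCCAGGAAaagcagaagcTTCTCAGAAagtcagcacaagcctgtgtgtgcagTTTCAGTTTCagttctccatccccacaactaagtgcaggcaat
Igtp, chr11:58199446-58199545, plus strand: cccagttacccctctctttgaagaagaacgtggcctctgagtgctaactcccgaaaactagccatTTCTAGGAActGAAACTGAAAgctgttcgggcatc
Irgm1, chr11:48871431-48871530, minus strand: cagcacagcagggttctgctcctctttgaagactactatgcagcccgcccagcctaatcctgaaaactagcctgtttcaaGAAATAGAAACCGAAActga
Irgm2, chr11:58214867-58214966, plus strand: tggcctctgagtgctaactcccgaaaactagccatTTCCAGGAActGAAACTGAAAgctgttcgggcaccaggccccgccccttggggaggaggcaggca
Tgtp1, chr11:48992257-48992356, minus strand: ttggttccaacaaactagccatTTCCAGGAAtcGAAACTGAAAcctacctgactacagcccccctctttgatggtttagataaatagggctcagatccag

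All 7 matched members held an ISRE core within 300 bases, where 3.44% of 32841 promoters of that length did. Gbp3 has a further promoter entry that held none. A GAS match was present in 4 of the 7 (Gbp7, Igtp, Irgm2 and Tgtp1), against 8.30% of all promoters. In Igtp, Irgm2 and Tgtp1 the GAS match ended 2 bases before the ISRE core, and that arrangement, read on either strand, occurred in 5 promoters of the whole table. These belong to the 3 members, to Tgtp2 and to Gm12185, the gene that overlaps Tgtp1 in the annotation. Igtp and Irgm2 shared an identical run of 61 bases, the longest between any 2 of the matched members. A match describes letters in this window and no binding was measured.

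The members lie in 4 groups of neighbouring genes on 3 chromosomes of mm10 (GRCm38, GENCODE M21), where neighbours are within 1 Mb of one another. Gbp2 (chr3:142620602-142638008), Gbp3 (chr3:142560026-142573209) and Gbp7 (chr3:142530342-142550149) are on the plus strand of chromosome 3. Gbp4 (chr5:105115767-105139586), Gbp6 (chr5:105270702-105293698) and Gbp9 (chr5:105077630-105139539) are on the minus strand of chromosome 5. Irgm1 (chr11:48861968-48871683) and Tgtp1 (chr11:48985327-48994172) are on the minus strand of chromosome 11, and at a separate locus Igtp (chr11:58199556-58207591) and Irgm2 (chr11:58199618-58222782) on its plus strand. Exonic reads of close relatives can be split or lost in counting. Of 50-base windows of the longest transcript, 91.4% for Tgtp1 and 59.7% for Gbp6 also occur in another gene's transcripts, mostly Tgtp2 and Gm43302. For the other 8 members the share was between 0 and 12.8%, with 0 for Irgm1. Igtp and Irgm2 share 162 exonic bases, and Gbp4 and Gbp9 share 60. The values of Tgtp1 and Gbp6 are therefore uncertain as values of 1 gene.

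Libraries held 11544960 to 14431533 counts, of which 12386 to 16437 fell on the 10 members. As a share of all counts that was 0.107% and 0.117% in SPF (replicate 1, then 2, here and below) and 0.109% and 0.111% in GF. In TMM-scaled CPM, counts scaled to library size, the members together measured 1082 and 1161 CPM in SPF and 1063 and 1141 CPM in GF. The GF and SPF ranges of this total overlap. The sorted cells carried their defining RNA: 10 CD8 T cell markers summed to 4837 to 6458 CPM, with most counts over the 4 libraries on the kinase gene Lck (969.0 to 1123 CPM).

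Ranked by CPM per kilobase of exon, which allows genes to be compared, Igtp had the highest level with a mean of 74.9 over the 4 libraries (60.9 to 97.1). Gbp4 followed at 57.0 (49.5 to 61.6) and Irgm1 at 49.4 (41.2 to 63.4), and the ranges of these 3 overlap. A gap separated them from Gbp2 at 36.01 (30.1 to 39.9), Gbp7 at 30.3, Gbp6 at 27.9, Gbp9 at 26.8 and Irgm2 at 18.2, in which each gene's range overlaps that of the next. Tgtp1 at 12.4 (9.99 to 13.8) and Gbp3 at 10.9 (9.51 to 12.1) were lowest and overlap each other but not Irgm2. The ranks of Tgtp1 and Gbp6 are uncertain, as 91.4% and 59.7% of their 50-base windows occur in other genes' transcripts. By CPM, 6.93% of tested genes had a higher mean than Gbp4, and 54.2% had a higher mean than Gbp3.

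The comparison of GF with SPF recipients asks whether the recipient's microbiota alters these transcripts. No member passed when 11271 genes were tested by edgeR (quasi-likelihood) with Benjamini-Hochberg adjustment. The members' adjusted p by that edgeR fit ran from 0.855 to 0.947, with 0 of 10 members called against a background of 0% of all tested genes. At an unadjusted p under 0.05 there were 0 members, against 3.22% of all genes. DESeq2, limma-voom and the edgeR exact test called 0 members too. Fold changes in log2 ran from -0.30 for Irgm1 to 0.46 for Gbp9, around a median of -0.12 (all genes -0.004), 3 above 0 and 7 below. The 95% intervals limit the change of Irgm2, the narrowest, to between 0.68 and 1.34 times the SPF level. For Gbp9, the widest, they run from 0.70 to 2.71 times. A missed threshold does not show equal levels. The smallest p that an exact two-sided permutation test allows with 2 libraries a group is 0.33.

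**Figure D1:**
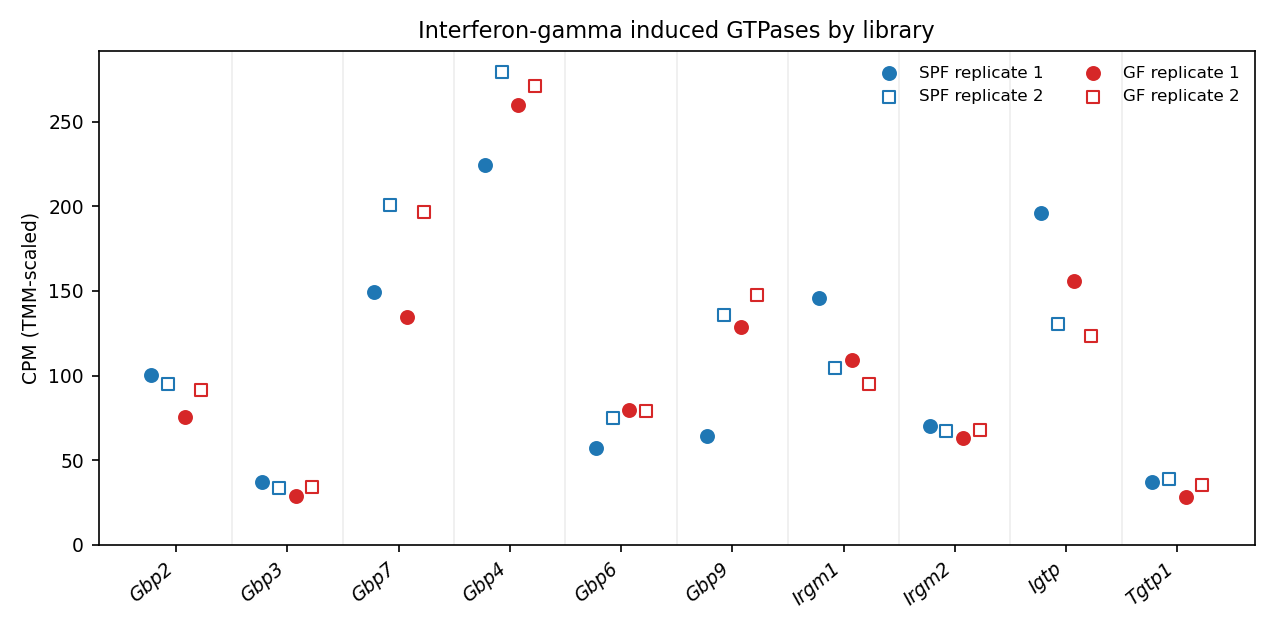
TMM-scaled CPM of each of the 10 GTPase genes (y axis, linear from 0) in the 4 libraries, with SPF in blue, GF in red, circles for replicate 1 and squares for replicate 2. The groups overlap for 7 genes, and Gbp9 in SPF replicate 1 lies apart at 64.4 CPM.

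On chromosome 3, Gbp2, whose protein loads onto parasite vacuoles, was at 100.3 and 95.2 CPM in the SPF and 75.6 and 91.3 CPM in the GF libraries. The GF values were both lower than the SPF values, with a log2 fold change of -0.23 (SE 0.21). Gbp3 was at 36.9 and 33.3 CPM in the SPF and 29.0 and 34.0 CPM in the GF libraries, and its groups overlap. Gbp7 had 149.3 and 201.0 CPM in SPF against 134.6 and 196.5 CPM in GF. For Gbp7 the libraries numbered 2 were the high ones in both groups, and its log2 fold change was -0.08 (SE 0.29). Its sign turned without SPF replicate 2 (0.14) and without GF replicate 1 (0.16).

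On chromosome 5, Gbp4 was at 224.7 and 279.5 CPM in the SPF and 259.8 and 271.1 CPM in the GF libraries. SPF replicate 1 was the lowest and SPF replicate 2 the highest, so that the GF values fell between them. The log2 fold change of Gbp4 was 0.07 (SE 0.22), and -0.07 without SPF replicate 1. Gbp6 was at 57.0 and 75.0 CPM in SPF against 79.5 and 79.1 CPM in GF, a log2 fold change of 0.26 (SE 0.23). Both GF libraries were above both SPF libraries, by little over SPF replicate 2. The log2 fold change of Gbp6 was 0.08 without SPF replicate 1 and 0.47 without SPF replicate 2.

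Gbp9 had 64.4 and 135.9 CPM in SPF and 128.6 and 147.9 CPM in GF. The low value was that of SPF replicate 1, with the other 3 libraries close together. SPF replicate 2 held 2.10 times the level of replicate 1, a difference between replicates that 9.11% of tested genes equalled or exceeded in SPF. The log2 fold change was 0.46 (SE 0.38) with all libraries. Without SPF replicate 1 it was 0.03. Without SPF replicate 2, which leaves the low library alone in its group, it was 1.10 and passed that edgeR fit (adjusted p = 0.015). There the spread comes from the GF pair alone, SPF replicate 1 is assumed to vary like it, and 6.77% of all 11574 genes tested passed as higher in GF and 4.7% as lower. Calls of that fit set 1 SPF library against the GF pair. Over all its alternatives the adjusted p of Gbp9 ran from 0.015 to 1.00.

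On chromosome 11, Irgm1 had 146.1 and 104.7 CPM in SPF and 109.3 and 94.97 CPM in GF. Igtp was at 196.3 and 130.5 CPM in SPF against 155.6 and 123.2 CPM in GF. For both of these regulators SPF replicate 1 was the highest library, and GF replicate 1 exceeded SPF replicate 2. Their log2 fold changes were -0.30 (SE 0.25) and -0.23 (SE 0.28). Without SPF replicate 1 they were -0.03 and 0.10, and without SPF replicate 2 they were -0.52 and -0.50. The third regulator, Irgm2, was the steadiest member, at 70.0 and 67.3 CPM in SPF and 63.0 and 67.8 CPM in GF. The effector Tgtp1 had 37.0 and 39.0 CPM in SPF and 28.2 and 35.4 CPM in GF. Its GF libraries lay below its SPF libraries, with a log2 fold change of -0.26 (SE 0.23).

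The GF values thus both exceeded the SPF values for 1 member (Gbp6), where 16.8% of tested genes did so, and below for 2 (Gbp2 and Tgtp1), where 16.4% did. The 3 members on chromosome 5 had fold changes above 0 and the 7 on chromosomes 3 and 11 below 0. Summed over each locus, chromosome 5 members came to 418.2 ± 102.0 CPM for SPF and to 483.0 ± 21.3 CPM for GF (SD over 2 libraries each). Chromosome 3 members measured 308.0 ± 30.4 against 280.5 ± 58.4 CPM, and Igtp with Irgm2 232.0 ± 48.4 against 204.8 ± 19.6 CPM. Each of these differences is smaller than the larger of the 2 SDs. Irgm1 with Tgtp1 came to 163.4 ± 27.9 CPM for SPF and 134.0 ± 5.03 CPM for GF, a difference little above the SPF SD, and both GF sums were under both SPF sums. The sign of Gbp4 turned when a trend with transcript length was removed (-0.02). Other genes of the chromosome 5 cluster went both ways. Gbp8 lay below 0, with -0.22 as its log2 fold change (SE 0.21). Gbp10 lay above 0, at 0.30 (SE 0.48), with overlapping groups, and 82.5% of its 50-base windows occur in other transcripts. Gbp11, on 1 to 11 counts, was not tested. Its GF libraries (0.48 and 0.79 CPM) were above its SPF libraries (0.09 and 0.28 CPM).

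**Figure D2:**
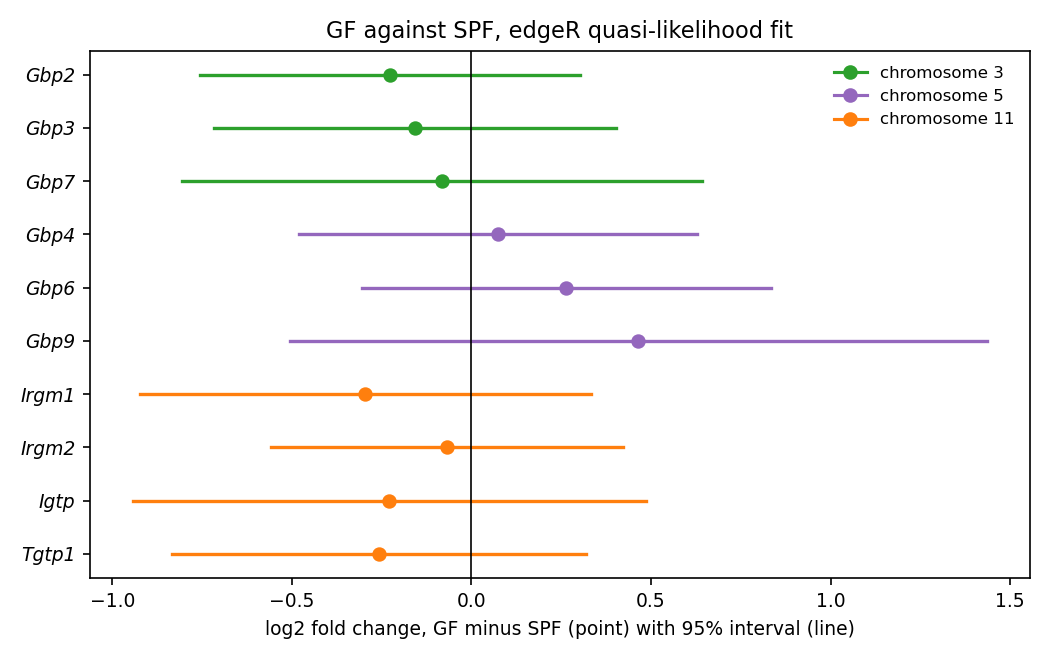
Log2 fold change of GF minus SPF (x axis) for the 10 members, as points with 95% intervals from the edgeR quasi-likelihood fit, coloured by chromosome. All 10 intervals span 0, and that of Gbp9 is the widest.

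The replicate difference in log2 CPM was larger than the log2 fold change between recipients for 6 of 10 members in SPF, against 69.2% of all tested genes, and for 6 of 10 in GF, against 52.2%. For all 10 it was larger in at least 1 of the groups, which held for 77.5% of all tested genes. A chi-square of the members' counts gave 79.4 per degree of freedom between the SPF replicates and 25.9 between the GF replicates. SPF replicate 1 against GF replicate 1 gave 55.96, and SPF replicate 2 against GF replicate 2 gave 5.004, so that the latter pair was nearer to one another than replicates were. SPF replicate 1 was the highest or lowest library for 8 of 10 members, close to its share over all tested genes (76.2%). GF replicate 1 was so for 6 of 10, 5 times as the lowest, where its share over all tested genes was 32.7%.

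These replicate differences ran with transcript length. Igtp (2022 nt of exon) and Irgm1 (2305 nt), the shortest members, had lower values in replicate 2 of both groups: by log2 CPM, -0.59 and -0.48 in SPF and -0.34 and -0.20 in GF. Gbp7, the longest at 5614 nt, had higher values there (0.43 in SPF and 0.55 in GF). Across the 10 members Spearman's rho of length with replicate 2 minus 1 was 0.76 in SPF and 0.54 in GF, and 0.62 with GF minus SPF. Over 11194 tested genes it was 0.58, 0.53 and 0.41. The members share 1 set of libraries, so these are descriptions. With the length trend removed, the log2 fold changes of the members lay between -0.25 and 0.40 and 0 of 10 passed.

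**Figure D3:**
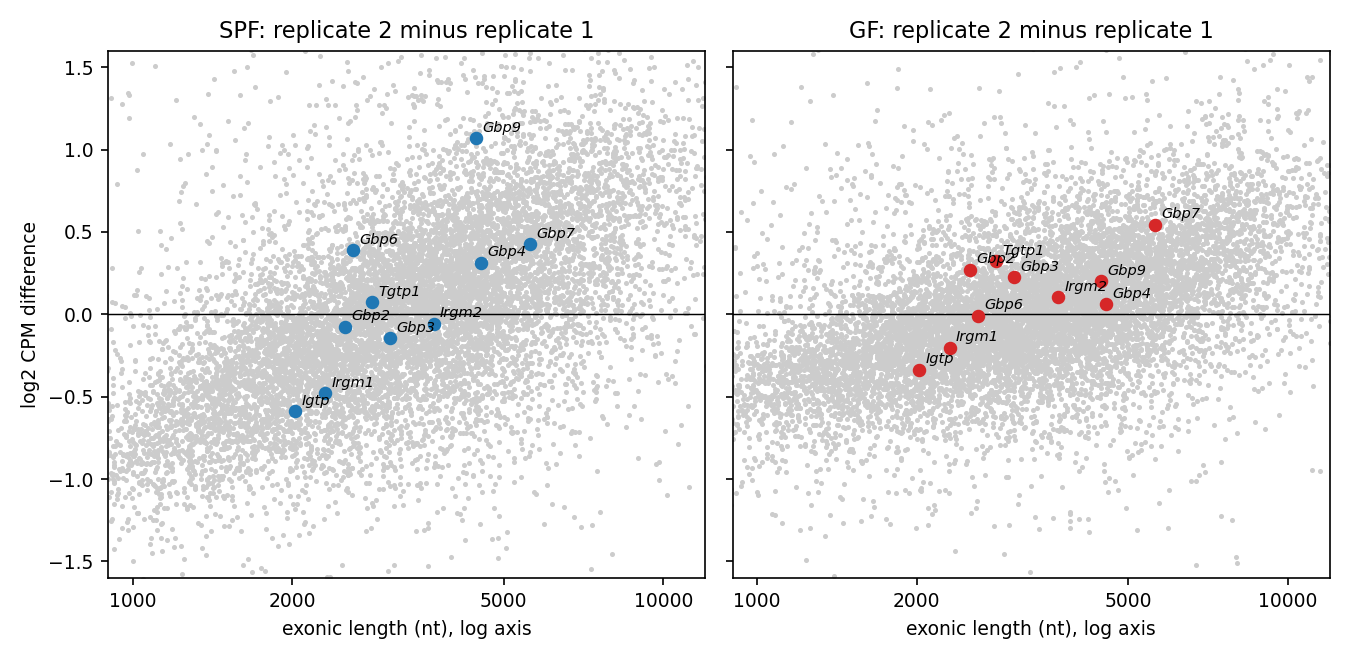
Difference in log2(CPM + 0.5) of replicate 2 minus replicate 1 (y axis) against exonic length in nt (x axis, log scale), in SPF on the left and GF on the right, with tested genes in grey and the members in colour. Genes outside the axis limits are not drawn. Igtp and Irgm1 sit low and Gbp7 high in both panels.

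Markers of other cells that can carry these GTPases also differed by library and, for NK and dendritic cell lists, by recipient. The 14 B cell markers summed to 120.5 and 149.3 CPM in SPF and GF replicates 1, and to 29.2 and 30.8 CPM in replicates 2, led by Cd79b. The 11 macrophage and monocyte markers summed to 87.2 to 123.5 CPM, nearly all of it Itgam (73.1 to 116.65 CPM), with Fcgr1 at 0 in every library. The 8 NK cell markers summed to 92.4 and 68.2 CPM in SPF and to 57.9 and 46.1 CPM in GF, led by Klrb1c, with Klra4 and Klra8 at 0. Of the 5 tested, all had a fold change below 0 (log2 median -0.75), as 7 of the 10 members did, and 0 passed. In 4 of the 5 each GF value was under each SPF value, against 16.4% of all tested genes. Their median exonic length was 1265 nt, against 3215.5 nt over all tested genes. Ncr1 had 3 and 0 counts in SPF and 2 and 1 in GF, and was not tested. The 8 dendritic cell markers summed to 397.6 and 710.7 CPM in SPF and to 782.5 and 986.3 CPM in GF, both GF sums above both SPF sums. Nearly all of it was Itgax, the CD11c gene, which activated T cells can express, with a log2 fold change of 0.70 (SE 0.37). Neutrophil markers (up to 0.95 CPM, led by S100a8) and erythroid markers (up to 1.65 CPM, led by Alas2) were near 0. The part of these cells in the members' values was not tested. In bulk RNA, fewer cells of a type and less RNA per cell cannot be told apart.

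Among the other GTPase genes of the 2 families and their dynamin-like relatives, a list of 19 symbols, 18 were in the table and 12 were tested. None passed the edgeR test (0 higher, 0 lower, smallest adjusted p 0.855), 2 had an unadjusted p under 0.05 (3.22% of all genes did), and the median log2 fold change was 0.16 (all genes -0.004). Ifi47 (Irgd), an IRG of chromosome 11, was the most abundant. It was at 511.0 and 290.4 CPM in SPF against 225.6 and 221.7 CPM in GF, a log2 fold change of -0.84 (SE 0.32). Its GF values were the lower pair, and SPF replicate 1 stood highest. Against SPF replicate 1 alone (without SPF replicate 2) it was -1.20, among the 4.7% of genes that fit called lower. Mx1, a dynamin-like GTPase gene of the type I interferon response, was at 40.5 and 41.7 CPM in SPF against 59.1 and 61.0 CPM in GF. Its replicates lay close together and its groups apart, with a log2 fold change of 0.55 (SE 0.19).

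The gene 9930111J21Rik1, beside Tgtp1 on chromosome 11, had 5.50 and 103.4 CPM in SPF and 42.8 and 127.0 CPM in GF. Its counts were 63 and 1464 in SPF and 626 and 1774 in GF. Replicates differed by 17.3-fold in SPF and 2.95-fold in GF on the scale of CPM + 0.5, and the log2 fold change between groups was 0.64 (SE 1.23). Against the low SPF replicate 1 alone (without SPF replicate 2) it was 3.94 and called, in a fit with no spread within SPF. Of its 50-base windows 79.3% occur in other transcripts, mainly of 9930111J21Rik2, which had 1.14 and 2.26 CPM in SPF and 0.55 and 3.65 CPM in GF. In both genes the libraries numbered 2 were higher.

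Tgtp2, nearly identical to Tgtp1, had the same layout with 80.4 and 88.9 CPM in SPF and 64.8 and 79.2 CPM in GF. Gbp8 measured 182.8 and 153.7 CPM in SPF against 134.7 and 153.7 CPM in GF. Gm12250 (Irgb10) had 38.4 and 36.6 against 27.7 and 31.0 CPM, and Gbp5 30.2 and 31.1 against 18.6 and 29.0 CPM. In Tgtp2, Gm12250 and Gbp5 each GF value was under each SPF value, while in Gbp8 the libraries numbered 2 were level. GF replicate 1 was the lowest library in all 4 genes, with log2 fold changes of -0.23, -0.22, -0.35 and -0.36. Of the 12 tested relatives, 5 had both GF values below both SPF values, against 16.4% of all tested genes. That count includes Gbp8, which is in it only by the near tie of its libraries numbered 2. The reverse held for 3, against 16.8%. Tgtp2 shares 89.8% of its 50-base windows with Tgtp1, so these 2 may not be separate observations. Irgq, an IRG-like gene, had 18.5 and 25.2 CPM in SPF and 29.8 and 32.8 CPM in GF. Iigp1 (Irga6), an effector, had 0.87 and 0.92 CPM in SPF and 2.39 and 1.36 CPM in GF, on 10 to 35 counts. Gbp10 ranged from 2.73 to 5.94 CPM and Mx2 from 1.30 to 2.15 CPM. Gbp11, Irgc1, Gm4951 and F830016B08Rik had 0 to 11 counts per library and were not tested, and Gbp2b had 0 counts in all 4, each of which allows up to 3 counts, or 0.21 to 0.26 CPM, for counting error only. Gvin1 is also listed at 0, but 99.2% of its 50-base windows occur in other genes' transcripts, mainly of Gm4070, so that no limit on its level follows.

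**Figure D4:**
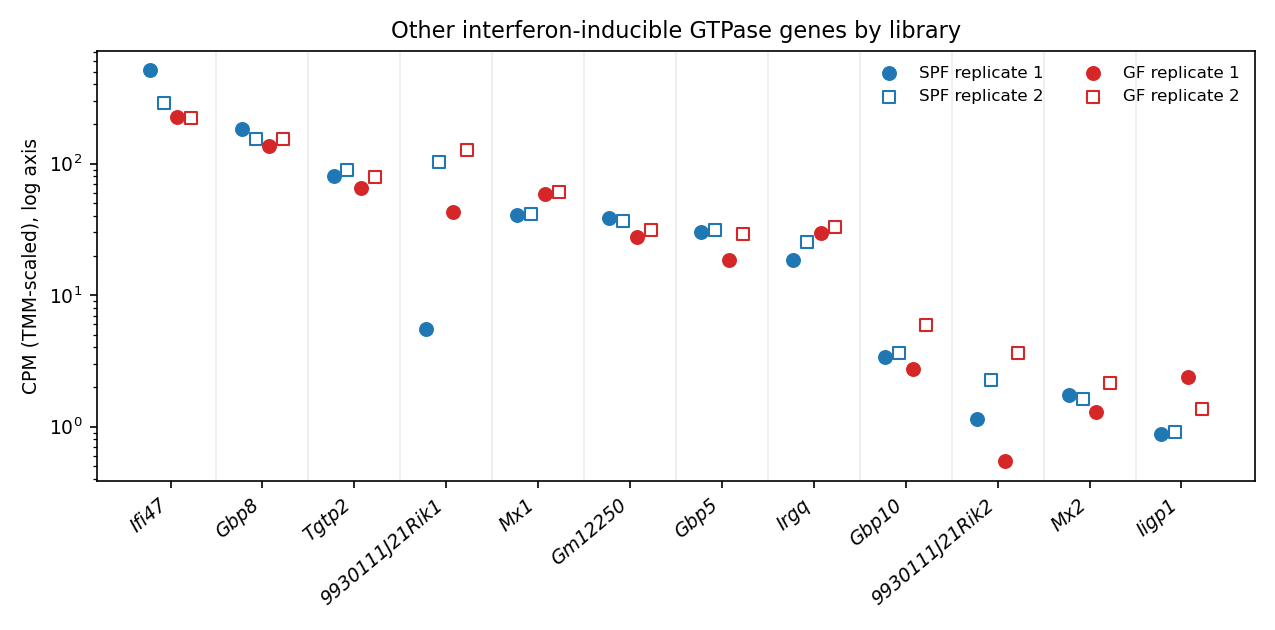
TMM-scaled CPM (y axis, log scale) of the 12 tested GTPase relatives in the 4 libraries, with symbols as for the members. Ifi47 and Mx1 show separate groups in opposite directions, and 9930111J21Rik1 spans from 5.50 to 127.0 CPM.

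Upstream of the members, 14 genes of interferon-γ signalling were all tested and 0 passed (edgeR, smallest adjusted p 0.855, 0 at an unadjusted p under 0.05), and their fold changes had a log2 median of -0.04. The ligand gene Ifng had 19.7 and 49.3 CPM in SPF and 26.1 and 68.8 CPM in GF. The libraries numbered 2 held the higher values in both groups, and the log2 fold change was 0.46 (SE 0.61). Against SPF replicate 1 alone, the lowest library, it was 1.26, among the 6.77% of genes called higher without SPF replicate 2. The receptor chain gene Ifngr1 was at 567.9 and 505.0 CPM in SPF against 485.0 and 462.6 CPM in GF. The other chain, Ifngr2, was low, at 0.79 and 0.42 CPM in SPF and 1.71 and 0.86 CPM in GF, a log2 fold change of 1.10 (SE 0.64).

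Irf1, a transcription factor gene induced by interferon-γ, had 335.3 and 299.1 CPM in SPF against 295.4 and 310.7 CPM in GF. The groups overlap, with a log2 fold change of -0.07 (SE 0.21). Of the inhibitors, the feedback gene Socs1 had 44.9 and 21.3 CPM in SPF and 24.9 and 24.4 CPM in GF, where SPF replicate 1 alone was high. For the phosphatase genes Ptpn6 and Ptpn2 the log2 fold change was -0.34 (SE 0.23) and -0.22 (SE 0.25).

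Downstream, 22 of 29 other interferon-γ targets were tested and 0 passed. There were 9 fold changes above 0 and 13 below, with a median of -0.15. Those tested had a median exonic length of 1952.5 nt, against 3215.5 nt over all tested genes. Over 11194 tested genes the fold changes rose with length (rho 0.41). Tap1, of the peptide transporter, was at 286.8 and 334.7 CPM in SPF against 426.1 and 402.3 CPM in GF. The adhesion ligand gene Icam1 had 87.0 and 101.7 against 111.8 and 141.0 CPM. Both had GF above SPF in every library, as 4 of the 22 tested did, against 16.8% of all tested genes. GF lay below SPF for 1 of the 22, against 16.4%. The log2 fold changes of Tap1 and Icam1 were 0.41 (SE 0.21) and 0.42 (SE 0.23). The immunoproteasome subunit gene Psmb10 and the proteasome activator gene Psme2 had -0.70 (SE 0.38) and -0.59 (SE 0.34), with SPF replicate 1 far above the rest at 312.6 and 363.4 CPM. Against that library alone they were -1.13 and -0.96, among the 4.7% of genes called lower without SPF replicate 2.

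Type I interferon response genes, which carry ISRE and share inducers with the members, had 20 of 21 tested and 0 passing. There was 1 fold change above 0 and 19 below, where all tested genes had 5597 above and 5674 below. The median was -0.38 against -0.12 for the members. GF lay below SPF for 7 of the 20, against 16.4% of all tested genes, and above SPF for 0, against 16.8%. Mx1, placed with the relatives above, went the other way at 0.55 (SE 0.19). Isg15 was at 20.96 and 9.18 CPM in SPF against 7.10 and 8.02 CPM in GF, and the RNA sensor gene Ifih1 had 18.2 and 20.6 against 11.4 and 15.5 CPM. For Ifit1 and Bst2 the log2 fold change was -0.75 (SE 0.36) and -0.70 (SE 0.40). In Isg15, Ifit1 and Bst2 the highest library was SPF replicate 1. Against it alone they were -1.48, -1.13 and -1.14, all among the 4.7% called lower. The tested NK cell markers given above had fold changes below 0 too, while Ncr1 had 0 to 3 counts per library and Klra4 and Klra8 had 0. Which cells the tested markers came from, and their part in this list's values, was not tested. The difference between this list and the members was not tested. This list's tested genes had a median exonic length of 2402.5 nt, against 3215.5 nt over all tested genes and 2938.5 nt for the members. Isg15 (756 nt) and Bst2 (792 nt) were short. Ifit1 had 2656 nt, and Ifih1, with a log2 fold change of -0.53 (SE 0.28), had 5470 nt, above the median of all tested genes. Over 11194 tested genes the fold changes rose with length (rho 0.41), and the part of length in this list's values was not tested.

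The conjugation machinery that guides these GTPases to vacuoles, with the inflammasome genes they act on, had 17 of 18 tested and 0 passing, with 4 fold changes above 0, 13 below and a median of -0.19. Atg3, the conjugating enzyme, was at 82.3 and 56.2 CPM in SPF against 47.2 and 47.3 CPM in GF. Gabarapl2, an ATG8 family member, had 344.4 and 197.1 against 191.3 and 174.3 CPM. Atg5 and the pore-forming Gsdmd differed by a log2 fold change of -0.31 (SE 0.22) and -0.26 (SE 0.19). In all 4 genes, named for the smallest p of their list, the GF values were the lower pair. That held for 5 of the 17 tested, against 16.4% of all tested genes. GF lay above SPF for 0 of them, against 16.8%. The median exonic length of the 17 was 2352 nt, against 3215.5 nt over all tested genes. Against SPF replicate 1 alone, its highest library, Gabarapl2 was at -0.92, again among the 4.7% called lower.

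**Figure D5:**
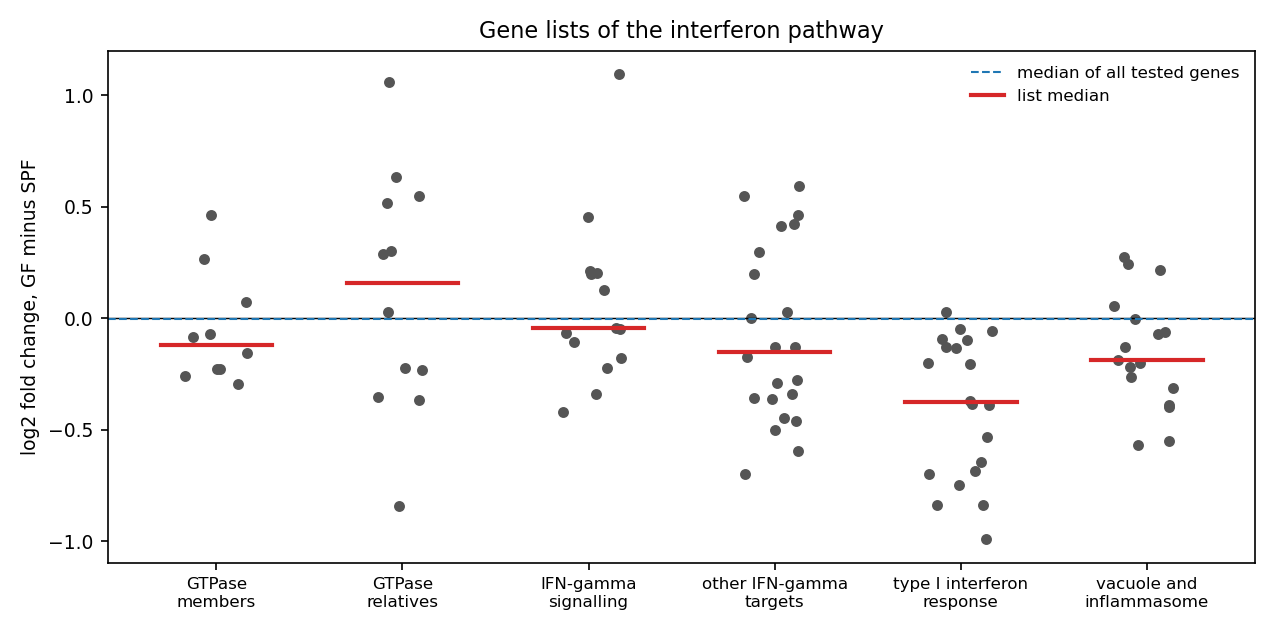
Log2 fold change of GF minus SPF (y axis) of each tested gene in the members and 5 lists of related genes, as points spread sideways for legibility, with the list median in red and the median of all tested genes as a dashed line. Of the 6 sets the members span the narrowest range, from -0.30 to 0.46. They also have the fewest tested genes (10, against 12 to 22), and a range widens with number.

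By root mean square difference of centred log2 CPM over the 4 libraries, the 5 genes nearest to the members' mean pattern were Cxxc1 (0.0096), Gaa (0.011), Srpr (0.011), Sf3b2 (0.011) and Napg (0.012). That mean pattern was shallow, at -0.03 and 0.07 in SPF and -0.08 and 0.04 in GF. The likeness rests on 4 libraries only. Of the members themselves, Irgm2 lay nearest to it (0.06) and Gbp9 farthest (0.46).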

How the data were processed

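The deposited table holds raw read counts per gene symbol, 1 column per library, each named in its sample's labels. The submitters' processing notes name build mm10 and CASAVA, TopHat, Picard, Subread, featureCounts and edgeR. Which versions, settings and gene annotation were used is not given in the sources used here. Counts were used as deposited. The kit named in the labels does not mark strand, so reads of overlapping genes cannot be told apart by strand.

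All genes were fitted with edgeR 4.0.16 in R 4.3.3 (TMM scaling, filterByExpr, 11271 genes kept, quasi-likelihood F test for recipient group, no covariates), with two-sided p-values adjusted by Benjamini-Hochberg and a threshold of 0.05. Standard errors were taken as log2 fold change over the root of F. Per-gene CPM use TMM-scaled library sizes and marker totals use plain totals. Exonic lengths are merged exons of GENCODE M21, found for 99.3% of tested genes. The fit was tested on simulated counts for 11271 genes with 200 changed: it called 10% of those changed 2-fold and 79% of those changed 4-fold, with 3 false calls among 92. Alternatives used limma 3.58.1 and DESeq2 1.42.0, and figures matplotlib 3.10.9. Named genes were all members and measured relatives, the 4 of each other list with the smallest p, Ifng, Ifngr1, Ifngr2 and Irf1, the 5 of most similar pattern, and the top marker of each other cell type. A further gene that the rule names is not reported here. The members and lists were chosen with earlier results of these data known.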

Additional observations from a re-analysis of the deposited data

How the results depend on the processing

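Of 150 values of single members under 15 alternatives, 142 kept their direction and side of the threshold. Members called numbered 1 (Gbp9) with the replicate number as a block (replicate block, log2 fold change 0.55, edgeR adjusted p = 0.049), and 0 to 1 with a library left out. No label ties the replicate numbers to an animal or day. Differences by number correlated across 11271 genes (r = 0.73). With the block, calls over all genes were 786 higher and 420 lower, and 226 and 96 with the length trend also removed. With the replicate block, calls were 2 higher and 1 lower among GTPase relatives, 2 and 2 among other interferon-γ targets, 4 lower among type I genes and 2 lower among vacuole and inflammasome genes. With block and length removal, they were 1 higher in signalling (Ifng), 1 lower in relatives (Ifi47) and 0 among other targets, type I genes and vacuole genes. DESeq2 and the exact test each called 8 higher and 1 lower over all genes. With a library left out, calls over all genes ran from 0 to 783 higher and 0 to 544 lower. In the lists they ran from 0 to 1 in relatives (each direction) and signalling (higher), 0 to 2 in other targets (each direction), 0 to 5 lower in type I genes and 0 to 1 lower in vacuole genes. The largest counts came without SPF replicate 2, where SPF has 1 library and the GF pair alone gives the spread. The sign of Gbp4 turned to -0.023 with the length trend removed, with and without the block. With libraries left out, Gbp4 ran from -0.073 to 0.23, Gbp7 from -0.38 to 0.16 and Igtp from -0.50 to 0.10. Without a change of sign, Gbp9 ran from 0.03 to 1.10, Gbp6 from 0.08 to 0.47, Irgm1 from -0.52 to -0.03, Gbp2 from -0.37 to -0.10, Gbp3 from -0.28 to -0.05, Irgm2 from -0.13 to -0.02 and Tgtp1 from -0.43 to -0.10. The cause was not tested. The members' median ran from -0.16 to -0.03. Each member had 413 to 3956 counts per library. The intervals given are of the fit without a block, and with 2 libraries per group differences within them are not excluded.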
